A study of Homo sapiens with 6 samples.

Results

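Interferon-stimulated genes were followed in LX-2 cells, a human line derived from hepatic stellate cells, after silencing of OGT, the enzyme that places O-linked N-acetylglucosamine on nuclear and cytoplasmic proteins. The set was a fixed list of 45 gene symbols, matched to the gene symbols of the 6 count tables. Of these, 44 were found and all 44 passed the filter of at least 10 counts in total, among 14853 genes tested of 16907 in the tables. CMPK2 was not analysed here. Both groups were grown in DMEM with fetal bovine serum and received 20 nM siRNA by JetPrime for 72 h. The siControl group (n = 3) received a non-targeting siRNA and the siOGT group (n = 3) an siRNA pool against OGT. No interferon, virus or other stimulus is given in the labels for either group, so the values are those of transfected cells without a stated stimulus. Neither group was left untransfected, so any effect of siRNA transfection itself on these genes was not tested. The control and the OGT siRNAs came from different suppliers and design formats, so the target and the siRNA chemistry cannot be told apart. The replicate numbers stand for 3 independent experiments, each with 1 library per group, and are called pairs 1 to 3 below.

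Interferons are secreted proteins that bind receptors on the cell surface and activate the kinases JAK1, JAK2 and TYK2. Type I and type III interferons lead to a complex with STAT2 and IRF9 that binds the interferon-stimulated response element (ISRE), while type II interferon acts through the gamma-activated sequence (GAS). The induced genes encode RNA sensors, enzymes that block viral replication, membrane proteins that block entry or release, a ubiquitin-like modifier and the factors of the pathway itself. Many are also transcribed at a low level without added interferon.

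To show the kind of element these genes carry, the windows around ISRE matches are given for 4 genes that fell in siOGT (BST2, IFIT1, OAS3 and ISG15) and for 4 whose ratio was above 0 in pair 1 and below 0 in pairs 2 and 3 (IFI6, IFI44, IFI44L and IFIT3). The sequences are from RefSeq promoters of GRCh38.p14, read 5′ to 3′ on the strand of the gene, and capitals mark matches to GAAANNGAAA or its reverse complement TTTCNNTTTC, which can overlap. The windows lie at chr19:17405730-17405775 (BST2, minus strand), chr10:89392492-89392544 (IFIT1, plus), chr12:112938316-112938355 (OAS3, plus), chr1:1013369-1013414 (ISG15, plus), chr1:27672261-27672322 (IFI6, minus), chr1:78649756-78649788 (IFI44, plus), chr1:78620360-78620399 (IFI44L, plus) and chr10:89327826-89327899 (IFIT3, plus).
BST2: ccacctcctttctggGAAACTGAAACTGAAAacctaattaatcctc
IFIT1: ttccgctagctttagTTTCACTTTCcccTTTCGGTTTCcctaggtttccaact
OAS3: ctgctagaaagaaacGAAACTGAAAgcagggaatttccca
ISG15: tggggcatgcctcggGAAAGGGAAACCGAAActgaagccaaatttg
IFI6: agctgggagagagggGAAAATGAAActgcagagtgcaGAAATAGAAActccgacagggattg
IFI44: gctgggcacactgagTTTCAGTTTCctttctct
IFI44L: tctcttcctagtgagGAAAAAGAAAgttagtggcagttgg
IFIT3: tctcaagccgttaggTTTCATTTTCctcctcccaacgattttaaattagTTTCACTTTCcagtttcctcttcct

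A promoter, here the 250 bases before and 50 after the annotated start, was found for 35 of the 44 genes. At least 1 ISRE match stood in 21 of the 35 (60.0%), against 996 of all 27305 promoters (3.65%). The share was 10 of 16 (62.5%) among genes called lower in siOGT and 11 of 19 (57.9%) among those not called. It was 6 of 9 (66.7%) among the genes whose pair 1 ratio stood above 0 and the others below. A GAS match, TTCNNNGAA, stood in 8 of 35 promoters (22.9%), against 7.88% of all promoters. GAS and ISRE matches can overlap, and a match is a description of the letters, not evidence of a bound site.

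OGT itself fell in siOGT, to 22.6%, 19.7% and 24.1% of the siControl level in pairs 1, 2 and 3 (log2 fold change -2.18, SE 0.0733, edgeR adjusted p = 2.71e-12). Library totals ran from 25996770 to 27966801 expected counts, with no library standing apart by depth. Stellate markers stood at unlike levels. COL1A1, the type I collagen chain, averaged 2658 CPM (counts per 1000000 after TMM scaling) in siControl, and VIM was also abundant. In contrast, ACTA2 averaged 6.55 CPM in siControl, and LUM had at most 4 counts. Of 9 stellate markers in the tables, 5 were lower and 1 was higher in siOGT. Of the 10 immune markers, 7 were found. PTPRC, the pan-leukocyte marker, had 9 to 23 counts per library, and CD14 had 120 to 198 and was not called. CD68, also made by other cells, was the only one called (higher). Summed immune marker CPM was 132 to 162 in siControl and 176 to 209 in siOGT, nearly all of it CD68, and CD3E of T cells had at most 2 counts. The part of cells expressing CD68 or CD14 in the results below was not tested. In bulk libraries, fewer cells with a transcript and less transcript per cell cannot be told apart.

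The interferon-stimulated genes were lower after OGT silencing. A total of 23 of the 44 genes fell and 0 rose at an edgeR adjusted p of at most 0.05, while 12.7% of all genes tested were called lower and 12.7% higher (25.4% in either direction). The 23 fall in every role group except the nucleotide antivirals, from the OAS enzymes and the tetherin gene BST2 to the ADP-ribosylation enzymes PARP9 and PARP14. The median log2 fold change was -0.31, or 80.6% of the siControl level, against 0.01 over all genes tested. Changes were modest in size: the called genes lay between 57.2% (TRIM22) and 85.6% (DTX3L) of siControl, and 0 genes reached a change of 2-fold. The fitted change was below 0 for 41 genes and above 0 for IFIT2, RSAD2 and SP100, none of which was called. Of the 21 genes not called, 19 had a 95% confidence interval within 1 log2 unit of no change on either side. The same held for 40 of all 44 genes, called or not, and for 8555 of the 11087 uncalled genes among all tested. This bound therefore does not set the uncalled genes apart from the called ones.

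These calls rest on comparing siOGT with siControl inside each experiment. Without the replicate block, 0 genes of the list were called by edgeR, and 130 of all genes tested were called. DESeq2 called 17 with the block (8.74% of all genes lower) and 5 without it (3.10% of all genes lower), the latter being IFIT1, XAF1, BST2, OAS3 and IFITM1. The blocked DESeq2 fit did not call OAS2, IRF7, MX2, ISG15, USP18 or DTX3L (DESeq2 adjusted p from 0.0739 for USP18 to 0.326 for OAS2). The median fold change moved little without the block, to -0.29.

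The experiments did not give the same size of change. Of the 44 genes, 26 had a ratio below 0 in 3 of 3 pairs, against 26.6% of all genes tested, and 1 (SP100) had a ratio above 0 in all 3, against 27.4%. The median log2 ratio was -0.12 in pair 1, -0.56 in pair 2 and -0.34 in pair 3, while all genes had medians within 0.01 of 0. Only 29 genes were below 0 in pair 1, compared with 41 in pair 2 and 41 in pair 3. Summed over the list, siOGT CPM was 92.1%, 74.8% and 83.4% of siControl CPM in pairs 1, 2 and 3. The sum was 2253, 2566 and 2068 CPM in siControl 1 to 3 and 2076, 1920 and 1725 CPM in siOGT 1 to 3, so siOGT 1 stood above siControl 3. Without IFITM3, the most abundant gene of the list, siOGT was at 93.7%, 73.7% and 78.8% of siControl in pairs 1, 2 and 3.

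**Figure D1:**
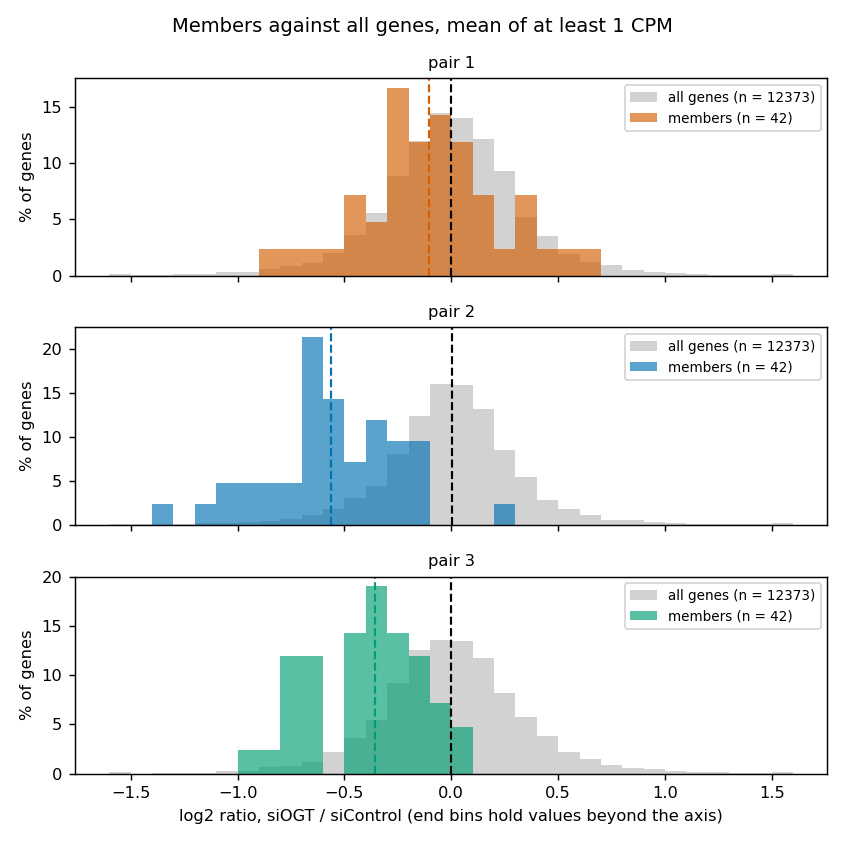
Share of genes (vertical axis, %) by log2 ratio of siOGT to siControl (horizontal axis, bins of 0.1) in each pair, for the 42 listed genes that averaged 1 CPM or more (coloured) and for the 12373 genes at that level (grey). Dashed lines are medians: the coloured one lies closest to 0 in pair 1 and farthest below it in pair 2.

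**Figure D2:**
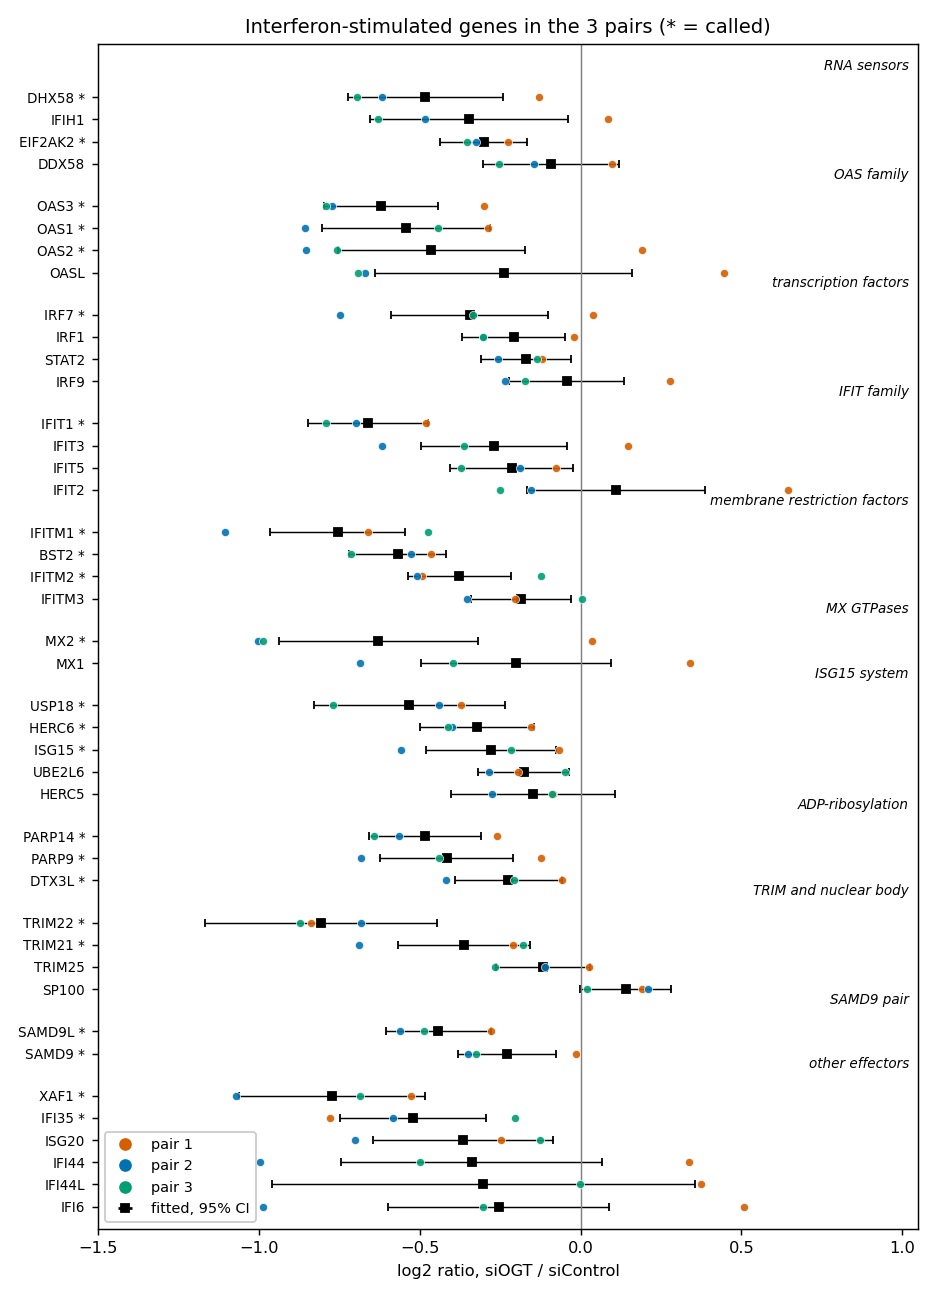
Log2 ratio of siOGT to siControl for each of the 42 listed genes that averaged 1 CPM or more, grouped by role. Circles are the 3 pairs, squares the edgeR fold change with its 95% confidence interval, and asterisks mark the 23 called genes. Pair 1 (orange) lies to the right of the other pairs for most genes, and SP100 alone has all 3 circles above 0.

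A total of 13 genes had every siOGT library below every siControl library, compared with 11.8% of all genes tested, and SP100 had every siOGT library above (12.1% of all genes). CPM also grows with transcript length. The length used here joined the exons of all annotated transcripts of a gene, so it can exceed that of any single transcript. Divided by that length in kb, IFITM3 had the highest level (186 CPM per kb in siControl and 163 in siOGT). IFITM2, UBE2L6, BST2 and IFI6 followed, the last at 52.5 and 44.8 CPM per kb. The lowest 4 on that scale were TRIM22, IFI44L, IFI27 and RSAD2, TRIM22 having 0.384 CPM per kb in siControl.

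Among the RNA sensors, DHX58 and EIF2AK2 fell and DDX58 and IFIH1 were not called. DHX58 encodes LGP2, a regulator of the RIG-I-like receptors, and was at 12.4, 17.1 and 13.9 CPM in siControl 1 to 3 and at 11.3, 11.1 and 8.54 CPM in siOGT 1 to 3. Every siOGT library was below every siControl library (log2 fold change -0.48, SE 0.115, edgeR adjusted p = 0.00515). EIF2AK2, the double-stranded RNA-activated kinase PKR, had 146, 156 and 141 CPM in siControl and 125, 125 and 110.2 CPM in siOGT. It showed one of the most even changes across the pairs, with ratios from -0.35 to -0.22 (log2 fold change -0.30, SE 0.0643, edgeR adjusted p = 0.00245). DDX58, the RIG-I gene, and IFIH1, the MDA5 gene, had ratios just above 0 in pair 1 (0.10 and 0.08) and between -0.63 and -0.14 in the others.

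The 2′-5′-oligoadenylate synthetases make the second messenger that switches on RNase L, and 3 of 4 fell. OAS3, the largest of them, was at 178, 208 and 169 CPM in siControl and at 144, 122 and 97.8 CPM in siOGT. All 3 siOGT libraries were below all siControl libraries (log2 fold change -0.62, SE 0.0836, edgeR adjusted p = 4.71e-05). OAS1 had 9.91, 15.7 and 8.49 CPM in siControl and 8.11, 8.62 and 6.23 CPM in siOGT, the groups overlapping through the lower siControl 3 library (log2 fold change -0.54, SE 0.124, edgeR adjusted p = 0.00382). OAS2 was at 27.9, 39.6 and 26.2 CPM in siControl and at 31.8, 21.9 and 15.5 CPM in siOGT. Its siOGT 1 library stood above 2 of the 3 siControl libraries, and the call came from pairs 2 and 3 (log2 fold change -0.46, SE 0.138, edgeR adjusted p = 0.0196). OASL, a catalytically inactive relative, was not called and had ratios of 0.44, -0.67 and -0.69. OAS1, OAS3 and OAS2 lie side by side on chromosome 12, their starts 32.2 and 40.3 kb apart, and OASL lies elsewhere on the chromosome.

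Of the transcription factors, IRF7, the amplifier of type I interferon transcription, fell while STAT2, IRF9 and IRF1 were not called. IRF7 had 19.2, 22.9 and 17.7 CPM in siControl and 19.7, 13.6 and 14.1 CPM in siOGT. Only pairs 2 and 3 were lower, and the groups overlapped (log2 fold change -0.34, SE 0.116, edgeR adjusted p = 0.0365). STAT2 and IRF9, parts of the ISRE-binding complex, had fitted log2 changes of -0.17 and -0.04. For IRF9 the ratio was 0.28 in pair 1, -0.24 in pair 2 and -0.17 in pair 3.

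The IFIT proteins bind viral RNA ends and are encoded next to each other on chromosome 10, in the order IFIT2, IFIT3, IFIT1 and IFIT5. IFIT1 was at 20.1, 31.5 and 23.0 CPM in siControl and at 14.4, 19.4 and 13.2 CPM in siOGT. Every siOGT library was below every siControl library (log2 fold change -0.66, SE 0.0884, edgeR adjusted p = 4.42e-05), and the promoter holds a pair of ISRE matches, printed above. IFIT2, singled out after its values were seen, had 20.7, 14.02 and 16.6 CPM in siControl and 32.5, 12.6 and 13.9 CPM in siOGT. The siOGT 1 library was the highest of the 6 and the other siOGT libraries the lowest, and no change was called (log2 fold change 0.11, 95% CI -0.16 to 0.39, edgeR adjusted p = 0.586). Without replicate 1, where IFIT2 was higher in siOGT, the fitted value was bound to be lower and was -0.21 (edgeR adjusted p = 0.313). IFIT3 split in the same way (0.15, -0.62 and -0.36), and IFIT5 was below 0 in each pair without a call (-0.08, -0.19 and -0.37). The starts of IFIT3 and IFIT1, which differ in this respect, are 65.2 kb apart.

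Of the membrane restriction factors, BST2, IFITM1 and IFITM2 fell. BST2 encodes tetherin, which holds budding virions at the cell surface, and was at 59.7, 70.2 and 65.4 CPM in siControl and at 43.2, 48.7 and 39.9 CPM in siOGT. The groups did not overlap and the pair ratios lay between -0.71 and -0.46 (log2 fold change -0.57, SE 0.0714, edgeR adjusted p = 2.56e-05). BST2 had the smallest adjusted p of the list, and was at 67.5% of siControl.

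The IFITM proteins block fusion of virus and endosome membranes. IFITM1 was at 39.1, 39.2 and 21.6 CPM in siControl and at 24.7, 18.2 and 15.6 CPM in siOGT, lower in each pair although siOGT 1 stood above siControl 3 (log2 fold change -0.75, SE 0.0996, edgeR adjusted p = 3.85e-05). IFITM2 had 100.3, 122 and 78.9 CPM in siControl and 71.3, 86.1 and 72.4 CPM in siOGT, the groups overlapping (log2 fold change -0.38, SE 0.0763, edgeR adjusted p = 0.00164). IFITM3 was at 522, 626 and 444 CPM in siControl and at 453, 490.04 and 445 CPM in siOGT, and was not called (log2 fold change -0.18, SE 0.0737, edgeR adjusted p = 0.0764). In pair 3 the IFITM3 libraries were nearly equal. The 3 IFITM genes are near-identical neighbours on chromosome 11 and their expected counts were fractional in all 6 libraries, which shows that reads were shared out among genes, so the division between them is uncertain.

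The MX genes encode dynamin-like GTPases that trap viral components, MX2 acting at the nuclear envelope and MX1 in the cytoplasm. MX2 was at 21.2, 27.9 and 16.7 CPM in siControl and at 21.7, 13.9 and 8.39 CPM in siOGT. In pairs 2 and 3 siOGT was at 49.8% and 50.3% of siControl, and in pair 1 at 102% (log2 fold change -0.63, SE 0.147, edgeR adjusted p = 0.00447). MX1, singled out after its values were seen, had 21.5, 14.02 and 12.8 CPM in siControl and 27.2, 8.69 and 9.73 CPM in siOGT. The 2 libraries of experiment 1 were the highest of their groups, and the fitted change was not called (log2 fold change -0.20, 95% CI -0.50 to 0.09, edgeR adjusted p = 0.326). Leaving out replicate 1, the experiment in which MX1 was higher in siOGT, was bound to lower the value and gave -0.54 (edgeR adjusted p = 0.0110).

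In the ISG15 system, the modifier ISG15, the ligase-like HERC6 and the deconjugating protease USP18, which also restrains receptor signalling, fell. ISG15 was at 22.0, 23.1 and 20.3 CPM in siControl and at 21.0, 15.6 and 17.5 CPM in siOGT, overlapping at siOGT 1 (log2 fold change -0.28, SE 0.0962, edgeR adjusted p = 0.0422). HERC6 had 25.7, 26.1 and 26.7 CPM in siControl and 23.1, 19.8 and 20.0 CPM in siOGT, without overlap (log2 fold change -0.32, SE 0.0836, edgeR adjusted p = 0.00906). USP18 was at 6.25, 7.19 and 7.17 CPM in siControl and at 4.81, 5.28 and 4.18 CPM in siOGT, also without overlap (log2 fold change -0.53, SE 0.141, edgeR adjusted p = 0.0101). The conjugating enzyme UBE2L6 and the ligase HERC5 were not called and had ratios between -0.29 and -0.05 in the 3 pairs.

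All 3 genes of the ADP-ribosylation group fell. PARP9 and its partner DTX3L, an E3 ligase of the DNA damage and interferon responses, are divergent genes on chromosome 3 whose annotated starts lie 239 bases apart. PARP9 was at 23.2, 27.7 and 21.5 CPM in siControl and at 21.2, 17.2 and 15.8 CPM in siOGT, without overlap (log2 fold change -0.42, SE 0.0984, edgeR adjusted p = 0.00492). DTX3L had 49.3, 40.7 and 34.2 CPM in siControl and 47.3, 30.4 and 29.7 CPM in siOGT, with overlap (log2 fold change -0.22, SE 0.0788, edgeR adjusted p = 0.0449). Both genes had their lowest ratio in pair 2. PARP14, a mono-ADP-ribosyltransferase further along the chromosome, was at 44.6, 36.6 and 34.4 CPM in siControl and at 37.3, 24.7 and 22.0 CPM in siOGT (log2 fold change -0.48, SE 0.0830, edgeR adjusted p = 0.000431). PARP14 was lower in each pair, though siOGT 1 stood above siControl 2 and 3.

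Among TRIM and nuclear body genes, TRIM22 had the most negative fold change of the list. TRIM22, a nuclear E3 ligase, was at 4.49, 5.89 and 4.08 CPM in siControl and at 2.48, 3.64 and 2.20 CPM in siOGT. The groups did not overlap, and the ratios of the 3 pairs were close together (-0.84, -0.68 and -0.87), pair 2 having the smallest difference (log2 fold change -0.81, SE 0.171, edgeR adjusted p = 0.00231). TRIM21, the cytosolic antibody receptor, had 22.7, 30.3 and 22.3 CPM in siControl and 19.6, 18.8 and 19.7 CPM in siOGT, without overlap (log2 fold change -0.36, SE 0.0977, edgeR adjusted p = 0.0112). TRIM25, the E3 ligase acting with RIG-I, was not called, at 145, 149 and 149.6 CPM in siControl and 148, 138 and 124 CPM in siOGT. Its ratio was 0.03 in pair 1 and lowest in pair 3 at -0.27 (log2 fold change -0.12, SE 0.0691, edgeR adjusted p = 0.240). SP100, a nuclear body scaffold singled out after its values were seen, was at 70.7, 70.2 and 77.3 CPM in siControl and at 80.7, 81.3 and 78.4 CPM in siOGT. It was higher in each pair but not called (log2 fold change 0.14, SE 0.0672, edgeR adjusted p = 0.140), except without replicate 3 (0.19, edgeR adjusted p = 0.0420).

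SAMD9 and SAMD9L, neighbouring genes on chromosome 7 for related inhibitors of translation and growth, both fell. SAMD9 was at 128, 150.4 and 126 CPM in siControl and at 127, 118 and 101 CPM in siOGT, nearly equal in pair 1 and overlapping with siControl 3 (log2 fold change -0.23, SE 0.0728, edgeR adjusted p = 0.0283). SAMD9L had 41.3, 46.6 and 34.0 CPM in siControl and 34.0, 31.6 and 24.2 CPM in siOGT, lower in each pair (log2 fold change -0.44, SE 0.0772, edgeR adjusted p = 0.000501). The groups touched only where siOGT 1 and siControl 3 met.

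Of the other effectors, XAF1 and IFI35 fell. XAF1, a pro-apoptotic antagonist of XIAP, was at 8.08, 10.9 and 7.06 CPM in siControl and at 5.59, 5.16 and 4.36 CPM in siOGT, without overlap (log2 fold change -0.77, SE 0.137, edgeR adjusted p = 0.000574). IFI35, a leucine zipper protein that pairs with NMI, had 16.2, 21.1 and 15.2 CPM in siControl and 9.40, 14.04 and 13.2 CPM in siOGT. Here pair 1 had the largest difference (-0.78) and pair 3 the smallest, at -0.20 (log2 fold change -0.52, SE 0.108, edgeR adjusted p = 0.00194). ISG20, an RNA exonuclease, had every siOGT library below every siControl library yet missed the threshold (log2 fold change -0.37, edgeR adjusted p = 0.0531). RSAD2, which encodes viperin, and IFI27 were near the floor, at no more than 6 and 10 counts in any library, and support no statement on direction.

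Among genes averaging 1 CPM or more, IFI6, IFI44 and IFI44L had the widest spread between pairs. IFI6, a mitochondrial and endoplasmic reticulum protein, was at 41.1, 61.8 and 44.6 CPM in siControl and at 58.5, 31.2 and 36.1 CPM in siOGT. Its 3 ratios were 0.51, -0.99 and -0.30, with 95% exact binomial intervals of 0.40 to 0.62, -1.11 to -0.87 and -0.43 to -0.18. IFI6 was named for the spread of these same ratios, so the gaps between the intervals are a description and not a test. The fitted change was not called (log2 fold change -0.25, SE 0.163, edgeR adjusted p = 0.280). IFI44 had 6.995, 6.52 and 5.20 CPM in siControl and 8.85, 3.23 and 3.66 CPM in siOGT, siOGT 1 being the highest library and the other siOGT libraries the lowest (log2 fold change -0.34, SE 0.193, edgeR adjusted p = 0.218). IFI44L, its neighbour, was at 2.69, 2.83 and 0.860 CPM in siControl and at 3.52, 1.08 and 0.858 CPM in siOGT. At 23 to 95 counts per library it was the least precise of these genes, with ratios of 0.38, -1.33 and -0.00 (log2 fold change -0.30, SE 0.312, edgeR adjusted p = 0.524). The exact intervals cover counting error only.

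**Figure D3:**
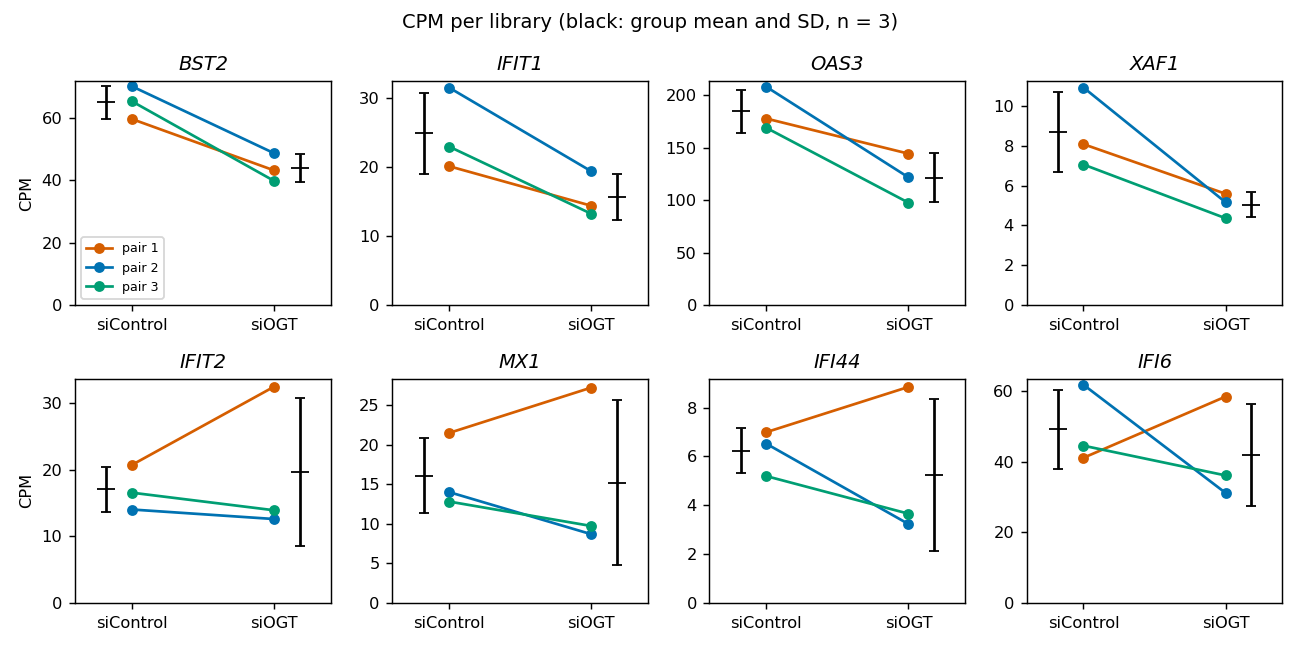
CPM (vertical axis, from 0) in each library for 4 genes called lower (BST2, IFIT1, OAS3 and XAF1, upper row) and 4 whose pair 1 went the other way (IFIT2, MX1, IFI44 and IFI6, lower row). Lines join the siControl and siOGT libraries of one pair, and black bars are the group mean and SD (n = 3). In the upper row all 3 lines descend, and in the lower row the line of pair 1 rises while the other lines descend.

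The split seen in these genes extended to a larger subset. In 14 genes the ratio was above 0 in pair 1 and below 0 in both other pairs, a pattern held by 5.60% of all genes tested. They were DDX58, IFIH1, OAS2, OASL, IRF7, IRF9, IFIT2, IFIT3, MX1, MX2, TRIM25, IFI6, IFI44 and IFI44L, and their median ratio was 0.23 in pair 1, -0.68 in pair 2 and -0.35 in pair 3. These genes were picked by the signs of the same ratios, which fixed the signs of the medians in advance. That choice also fixed the side of 0 on which an interval of these ratios could lie. For 8 of the 14 the counting interval in pair 1 lay wholly above 0, and for 12 and 13 the interval lay wholly below 0 in pairs 2 and 3. Over all 44 genes, the pair 1 interval lay wholly above 0 for 9 and wholly below 0 for 17. The intervals cover counting error only and were not computed for all genes tested, so no background share stands beside these counts. Over all 42 genes averaging 1 CPM or more, siOGT 1 was the highest siOGT library in 28 (66.7%), compared with 36.0% of the 12373 genes at that level. The siControl 2 library was the highest siControl library in 28 of the 42 (34.1% of all genes), and siOGT 3 the lowest siOGT library in 28 (27.0% of all genes), so experiments 2 and 3 also held libraries at one end of the order. The ratio was highest in pair 1 for 33 of 44 genes (75.0%), against 29.4% of all genes tested, and lowest in pair 2 for 25. The correlation of the ratios over the 42 genes was 0.095 between pairs 1 and 2, 0.24 between pairs 1 and 3 and 0.41 between pairs 2 and 3. Over all 12373 genes it was 0.61, 0.54 and 0.45, highest for the pairs that gave the lowest value over the listed genes. These are correlations across genes of the same libraries. OGT was at 22.6% in pair 1, between the values of the other pairs. What set pair 1 apart for these genes was not tested.

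The count was also taken without each experiment. Without replicate 1, 30 genes were called lower and 0 higher, while 6.54% of all genes were called lower. All 23 calls were kept, and IFIH1, IRF1, IFI6, MX1, OASL, IFI44 and IFIT3 were added, with log2 fold changes from -0.76 (IFI44) to -0.31 (IRF1). The added genes except IRF1 are among the 14 picked for a ratio above 0 in pair 1. Leaving out that pair was bound to lower their fitted values, so their gain is no independent evidence. The fit without replicate 1 rests on pairs 2 and 3 alone. Leaving out replicate 2 lowered the count to 15 (11.4% of all genes lower), OAS1, OAS2, IRF7, ISG15, PARP9, DTX3L, TRIM21 and SAMD9 being lost at edgeR adjusted p-values from 0.0544 (PARP9) to 0.411 (IRF7). Leaving out replicate 3 gave 20 lower and SP100 higher (12.4% of all genes lower), with OAS2, IRF7, ISG15, USP18, DTX3L and SAMD9 lost and ISG20, UBE2L6 and IFITM3 added. BST2, IFIT1, OAS3, IFITM1 and XAF1 were called in 9 of the 10 alternative fits, the exception being edgeR without the block, where BST2 had an adjusted p of 0.0502.

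The genes upstream of the list were examined from fixed lists, which were drawn up with earlier results of these data known. Over all genes tested, 12.7% were called lower and 12.7% higher. Of the 10 interferon genes listed, 3 were found among the gene symbols and the others could not be followed. Of those found, IFNE alone had enough counts to be tested, with 5 to 7 counts in siControl and 9 to 14 in siOGT (edgeR adjusted p = 0.279). IFNB1 had no more than 1 count in any library. Of 11 receptor, JAK and STAT genes, 4 fell and 0 rose. Among those that fell were the kinase TYK2 (log2 fold change -0.27), the receptor chain IFNGR2 (-0.31) and the transcription factor STAT3 (-0.19).

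The induction pathway, which senses nucleic acids and starts interferon transcription, moved both ways, with 4 of 15 genes lower and 3 higher. The adaptor of the DNA-sensing route STING1 fell from 23.0 ± 5.65 to 14.1 ± 1.88 CPM (SD, n = 3 each, log2 fold change -0.69, edgeR adjusted p = 5.31e-05). IRF3, the factor that turns on IFNB1, fell as well (-0.43, edgeR adjusted p = 0.000264). ZCCHC3, a co-sensor of RNA and DNA, rose from 46.2 ± 3.14 to 72.4 ± 8.46 CPM (log2 fold change 0.65, edgeR adjusted p = 2.48e-05), and TICAM1, the TLR3 adaptor, rose by 0.41 on the log2 scale. Among 8 negative regulators, SOCS1, an inhibitor of JAK kinases, fell (-0.51) and PIAS4 and PIAS1, inhibitors of STAT activity, rose (0.35 and 0.20).

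A second list of 43 tested interferon-stimulated genes outside the 44 had 20 lower and 1 higher, against 12.7% of all genes in each direction. The median log2 fold change of this second list was -0.24. Leading were APOL6, an apolipoprotein L (-0.70), SLFN11, a tRNA-cleaving restriction factor (-0.54), UBA7, the activating enzyme of ISG15 (-0.58), and PARP10 (-0.50), each lower in 3 of 3 pairs. The split pattern of the 14 genes, with pair 1 above 0 and the others below, was held by 8 of the 43, against 5.60% of all genes tested. In antigen presentation, which interferon also induces, 12 of 15 genes fell and 0 rose. HLA-F, a non-classical class I gene, fell from 12.0 ± 1.83 to 6.23 ± 1.22 CPM (SD, n = 3 each, log2 fold change -0.95, edgeR adjusted p = 1.75e-05). NLRC5, the class I transactivator (-0.49), TAP1, the peptide transporter (-0.48), and PSMB9, an immunoproteasome subunit (-0.66), fell on the log2 scale too. Pair 1 had the lowest ratio in 10 of 15 of these genes, in 3 of the 44 listed genes and in 31.7% of all genes tested. The median ratios for antigen presentation were -0.41, -0.31 and -0.21 in pairs 1 to 3.

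**Figure D4:**
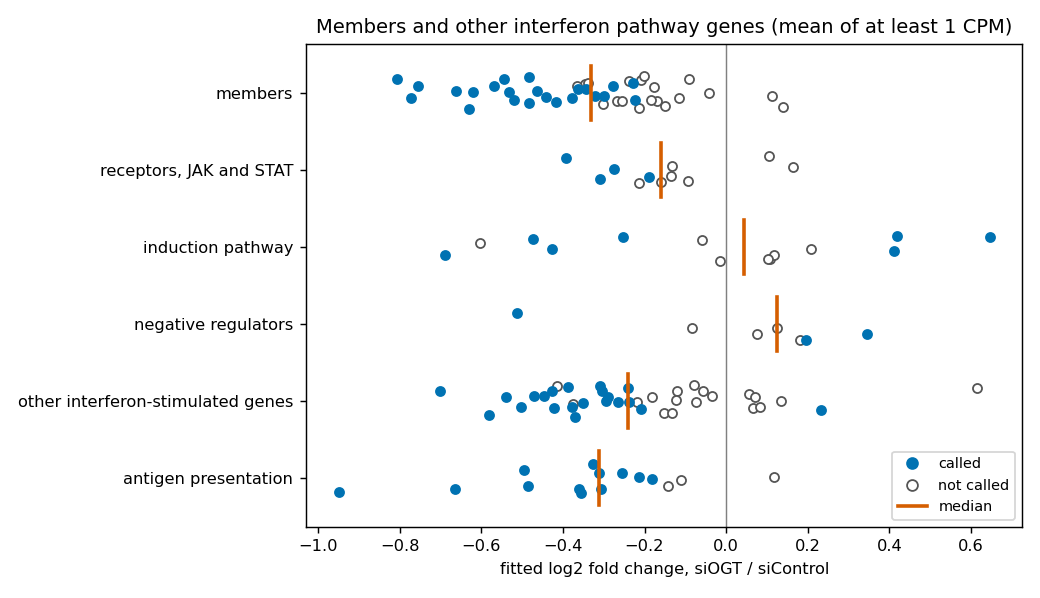
Fitted log2 fold change of siOGT against siControl (horizontal axis) for each gene averaging 1 CPM or more, in the 44-gene list (members, 42 shown) and in the fixed lists of other interferon pathway genes. Filled circles are genes called at an edgeR adjusted p of at most 0.05, open circles genes not called, and bars medians, which lie below 0 for the members, the receptors, the other interferon-stimulated genes and antigen presentation.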

How the data were processed

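RNA-seq of poly(A)-selected total RNA was made in 6 LX-2 libraries, 3 siControl and 3 siOGT. The authors deposited expected counts per gene for each library, and their processing notes name Bowtie2 2.3.5.1, RSEM 1.3.1, DESeq2 1.36.0 and hg38. RSEM divides reads shared by similar genes, so counts can be fractional, and they were rounded here. A deposited table of the authors' own comparison was not used.

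Genes with at least 10 counts in total were fitted with edgeR 4.0.16 in R 4.3.3 (TMM factors, quasi-likelihood F test, two-sided, replicate number as a block, as the study paired its samples), with Benjamini-Hochberg adjustment over all 14853 genes, and called at an adjusted p of at most 0.05. All adjusted p-values are from this model unless DESeq2 1.42.0 is named. Pair ratios used a prior count of 2, and their counting intervals exact binomial limits at 95%. Deviations from the group mean of same-numbered libraries correlated at 0.69, 0.53 and 0.33 for replicates 1, 2 and 3 (12373 genes), so the numbers pair the samples. The fit was tested on simulated counts in which each gene had the same true ratio in all 3 pairs. That test does not cover genes whose pairs differ. Exon lengths and gene positions are from GENCODE 44.

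The genes and lists were chosen with earlier results of these data known. Values per library were given for called genes, the 5 with the highest mean CPM and the 3 with the widest range of pair ratios, and up to 4 called genes were named per pathway list, by smallest adjusted p, except that 1 gene is not reported here. Marker lists for hepatocytes and cholangiocytes had 0 of 5 tested genes called, and of 5 endothelial markers VWF was lower. Not all of these markers were low: of the cholangiocyte list, SOX9 was at 83.1 to 122 CPM and KRT7 had 126 to 222 counts per library.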

Additional observations from a re-analysis of the deposited data

How the results depend on the processing

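The replicate block had the largest effect. Without it, edgeR called 130 genes (71 higher and 59 lower) and 0 listed genes. That fit called 0 receptor, JAK and STAT genes, and 0 lower and 1 higher in the induction pathway. Negative regulators and other interferon-stimulated genes had 0 calls in either direction, and 1 antigen presentation gene was called. The unblocked DESeq2 fit gave 849 calls over all genes (388 higher, 461 lower), with 5 listed genes, 0 receptor, JAK and STAT genes, 0 lower and 1 higher negative regulators, 9 lower and 0 higher other interferon-stimulated genes and 5 antigen presentation genes. With the block DESeq2 called 2415 genes, 1117 of them higher, with 0 other interferon-stimulated genes higher, and edgeR without a filter gave 2 of these. PIAS1 was at the threshold, so that 1 negative regulator was called higher with DESeq2 and the block, with median-ratio size factors, with filterByExpr and without replicate 1.

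Leaving out each replicate in turn gave 1803 to 3439 genes called (858 to 1652 higher, 945 to 1787 lower), 15 to 30 listed genes lower and 0 to 1 higher, 6 to 14 antigen presentation genes lower and 1 to 2 negative regulators higher. The median fold change of the list ranged from -0.49 to -0.19 over these fits. The sign changed within this range for IRF9 (-0.21 to 0.051), IFIT2 (-0.21 to 0.29), MX1 (-0.54 to 0.010), IFI6 (-0.65 to 0.11), IFI27 (-0.45 to 0.049) and IFI44L (-0.80 to 0.24), the opposite sign coming without replicate 1 for IFIT2 and IFI27, without replicate 2 for the others, and for IRF9 also without replicate 3. RSAD2 turned negative without replicate 2 (-0.13) and without the block (-0.010 with edgeR, -0.019 with DESeq2). None of these genes was called in the blocked edgeR fit of all libraries. Of 626 values of single genes under the alternatives, 502 kept sign and call, 99 lost the call and 15 gained one. The cause was not tested. With 3 libraries per group, and IFI44L at 23 to 95 counts per library, small differences were not detectable.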
